A study of Mus musculus with 8 samples.

Results

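The genes described here are 8 genes whose transcripts were lower than in wild-type (WT) mouse embryonic stem cells in all 3 lines edited at the TCF/LEF genes: Fndc3c1, Trim67, Trim36, Jakmip2, Casq2, Kcnj3, Atp10a and Cd109. They are 8 of 47729 gene identifiers in the count files, matched by symbol through the deposited comparison tables. They were selected on the measured values of these libraries, chosen by their level being lower than WT in the edited lines, so each value against WT is given as a description, with no test. All 8 were among the 16515 genes tested, and each reached the count filter in 3 to 6 of the 6 edited libraries and in both WT libraries.

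TCF/LEF proteins are the DNA-binding factors of canonical Wnt signalling. They bind a short motif through an HMG box, recruit TLE corepressors when Wnt is off, and recruit beta-catenin when Wnt is on. In mouse embryonic stem cells TCF7L1 is known mainly as a repressor of pluripotency genes and TCF7 mainly as an activator. Putting a single factor back into cells without any asks which transcripts depend on having at least 1 of them.

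Of the 4 groups, each with n = 2 libraries, QKO cells carry TCF7(-/-), TCF7L1(-/-), TCF7L2(-/-) and LEF1(-/-) and so lack all full-length TCF/LEF proteins. QT7 and QT7L1 are QKO cells in which, by the series' design text, a single copy of TCF7 or TCF7L1 was restored, while WT cells are unedited E14TG2a cells of strain 129/Ola. The genotype tags list TCF7L1(+/-) for QT7 and TCF7(+/-) for QT7L1, the reverse of the titles, so which factor each line carries is uncertain and the names below follow the titles. The edited lines are represented by a clone A (library 1) and a clone B (library 2), and WT by biological replicates; all cells had grown for 48 h in 15% serum with LIF, the cytokine that keeps these cells undifferentiated. Whether an edited line and its WT parent also differ in passage or in subcloning is not given in the sources used here, so editing and the derivation of clones cannot be told apart in any comparison with WT.

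The promoters of the 3 genes that lead the set are shown because these genes were low together in the edited lines and the TCF/LEF motif core can be looked for in them. Sequences are RefSeq promoter windows on GRCm38.p6, from 250 bases before to 50 after the start site, written 5' to 3' on the gene's strand. They lie at chrX:106485180-106485479 (minus strand, Fndc3c1), chr3:102086165-102086464 (plus strand, Casq2) and chr2:55435720-55436019 (plus strand, Kcnj3). Capitals mark the core CTTTG, or CAAAG where it is on the other strand.
Fndc3c1: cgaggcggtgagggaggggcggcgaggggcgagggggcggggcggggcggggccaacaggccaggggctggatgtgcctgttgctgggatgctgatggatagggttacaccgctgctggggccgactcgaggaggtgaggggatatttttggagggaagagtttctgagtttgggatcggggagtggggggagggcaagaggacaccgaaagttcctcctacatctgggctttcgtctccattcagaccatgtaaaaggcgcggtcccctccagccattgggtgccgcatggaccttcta
Casq2: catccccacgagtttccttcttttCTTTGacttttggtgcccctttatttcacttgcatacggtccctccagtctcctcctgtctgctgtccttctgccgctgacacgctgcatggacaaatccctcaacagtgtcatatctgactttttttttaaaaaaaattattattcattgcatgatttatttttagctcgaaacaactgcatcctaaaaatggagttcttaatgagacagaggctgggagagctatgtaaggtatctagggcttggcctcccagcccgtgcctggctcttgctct
Kcnj3: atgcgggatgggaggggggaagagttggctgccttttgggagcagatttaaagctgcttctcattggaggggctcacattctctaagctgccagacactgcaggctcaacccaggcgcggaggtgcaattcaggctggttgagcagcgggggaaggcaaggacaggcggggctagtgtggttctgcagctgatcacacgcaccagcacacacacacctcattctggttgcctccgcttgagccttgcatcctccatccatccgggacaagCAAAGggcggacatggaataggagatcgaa
A window was found for 5 of the 8 genes. The core was present once in the Casq2 window, 226 bases before the start site, and once in the Kcnj3 window, 20 bases after it. It was not found in the windows of Fndc3c1, Trim67 and Atp10a. The RefSeq start sites can differ from the gene bounds given below. The Atp10a window, chr7:58657952-58658251, lies inside the gene, whose bounds begin at 58656166, and bases before that position were not searched. On either strand the core occurs in 53.9% of 32851 promoter windows. The longer forms CTTTGAT and CTTTGAA, which contain the core, occur on either strand in 8.65% of windows and in none of these 5. The number of CG pairs ranged from 6 in Casq2, 10 in Kcnj3, 17 in Fndc3c1 and 20 in Atp10a to 28 in Trim67, against a median of 7 over all windows.

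Total counts per library ran from 31573536 to 43362627, and within each group the libraries differed beyond sampling noise. Transcripts of the targeted genes stayed countable: Tcf7 was at 7.97 and 19.7 CPM in QKO, 16.6 and 20.9 CPM in QT7 and 10.1 and 12.7 CPM in QT7L1, against 59.6 and 61.9 CPM in WT. Tcf7l1 was at 38.3 and 39.1 CPM in QKO, 27.4 and 22.4 CPM in QT7 and 36.9 and 27.5 CPM in QT7L1, against 73.6 and 68.8 CPM in WT. CPM are counts scaled to the TMM-adjusted library total. Counts over a whole gene do not show whether full-length transcript is made. The summed level of 8 embryonic stem cell markers (Pou5f1, Sox2, Nanog, Klf4, Esrrb, Zfp42, Dppa5a and Tdgf1) was 5770.0 to 6880.0 CPM in the edited libraries and 5650.0 and 5930.0 CPM in WT. All 12 fibroblast markers, which feeder cells would bring, summed to 126.0 and 37.7 CPM in QKO, 28.9 and 55.9 CPM in QT7 and 29.6 and 40.5 CPM in QT7L1, against 90.9 and 56.7 CPM in WT. Of these 12, 10 passed 3 counts in some library and Lum was at 0 in every library. The part of fibroblasts in the values of the 8 genes was not tested. In whole-culture RNA, fewer cells that express a gene and less RNA per cell cannot be told apart.

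In every one of the 8 genes all 6 edited libraries lay below both WT libraries, a pattern shown by 8.14% of all tested genes. In 7 of the 8, Atp10a being the exception, the lowest WT library was at least 2-fold above the highest edited library, which held for 0.394% of tested genes. These counts restate the choice of the genes. Relative to the WT mean, the level of the 8 genes had a median of 16.8% in QKO, 17.4% in QT7 and 17.4% in QT7L1. Fndc3c1 was the lowest in each line, at 6.93% in QKO, 4.04% in QT7 and 7.06% in QT7L1, and the highest were Cd109 in QKO (30.5%), Trim36 in QT7 (34.3%) and Atp10a in QT7L1 (42.7%).

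**Figure D1:**
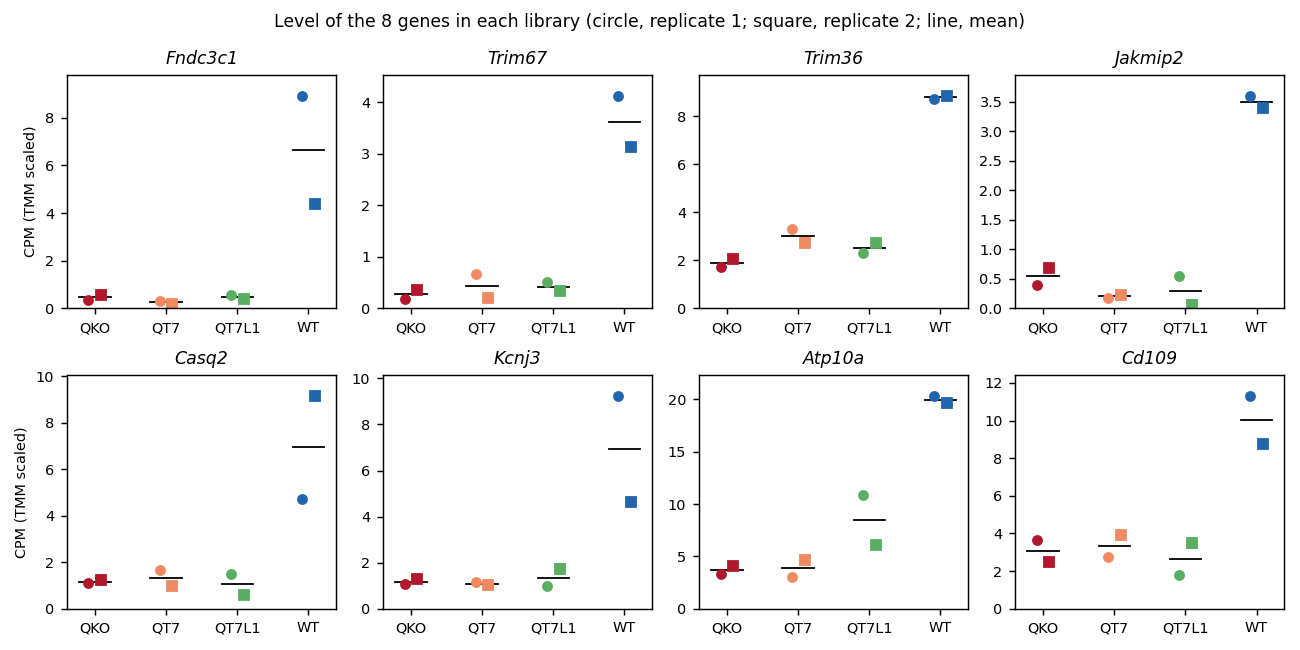
Level of each gene (CPM, linear axis from 0) in the 2 libraries of QKO, QT7, QT7L1 and WT; circles are replicate 1, squares replicate 2 and lines the mean. All edited libraries lie below both WT libraries in each panel, and Atp10a in QT7L1 lies between the other edited lines and WT.

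Fndc3c1 (ENSMUSG00000033737), on chromosome X at 106420041 to 106485401 (GRCm38, minus strand), encodes a protein with fibronectin type III domains. It was at 0.341 and 0.582 CPM in QKO, 0.332 and 0.207 CPM in QT7 and 0.545 and 0.396 CPM in QT7L1, against 8.92 and 4.4 CPM in WT. The edited libraries held 9 to 21 counts each and overlapped between QKO and QT7L1, while the WT libraries held 285 and 194. The log2 fold change was -3.83 ± 0.45 (SE) in QKO, -4.62 ± 0.47 in QT7 and -3.81 ± 0.45 in QT7L1, the lowest of the 8 genes in each line.

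Trim67 and Trim36 encode ubiquitin ligases of class I of the TRIM family, whose members associate with microtubules. In mice Trim67 is known from neurons, where it acts with its relative Trim9 in axon branching, and in Xenopus Trim36 is needed for dorsal axis formation. Trim67 (ENSMUSG00000036913; chromosome 8, 124793092 to 124834713, plus strand) was at 0.186 and 0.36 CPM in QKO, 0.664 and 0.207 CPM in QT7 and 0.515 and 0.335 CPM in QT7L1, against 4.13 and 3.13 CPM in WT. The 3 edited lines overlapped, and the log2 fold change against WT was -3.7 ± 0.54 (QKO), -3.06 ± 0.5 (QT7) and -3.08 ± 0.51 (QT7L1). Trim36 (ENSMUSG00000033949; chromosome 18, 46165300 to 46212607, minus strand) was at 1.74 and 2.08 CPM in QKO, 3.29 and 2.74 CPM in QT7 and 2.33 and 2.71 CPM in QT7L1, against 8.73 and 8.86 CPM in WT. Here the edited lines did not overlap in CPM, in the order QKO, QT7L1, QT7, and the log2 fold change against WT was -2.2 ± 0.24, -1.8 ± 0.24 and -1.55 ± 0.23 in that order.

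Jakmip2 encodes a coiled-coil protein of the Janus kinase and microtubule interacting family. Jakmip2 (ENSMUSG00000024502; chromosome 18, 43531407 to 43687773, minus strand) was at 0.403 and 0.693 CPM in QKO, 0.179 and 0.23 CPM in QT7 and 0.545 and 0.0609 CPM in QT7L1, against 3.6 and 3.4 CPM in WT. The lowest value rested on 2 counts, with an exact Poisson 95% interval of 0.00738 to 0.22 CPM that covers counting error only. Both QT7 libraries lay below both QKO libraries, while QT7L1 replicate 1 lay within the range of QKO and replicate 2 below both QT7 libraries. The log2 fold change against WT was -2.66 ± 0.58 in QKO, -4.07 ± 0.64 in QT7 and -3.51 ± 0.62 in QT7L1, and without QT7L1 replicate 1 the last became -5.76.

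Casq2 encodes calsequestrin 2, the protein that buffers calcium inside the sarcoplasmic reticulum of heart muscle. Casq2 (ENSMUSG00000027861; chromosome 3, 102086415 to 102146514, plus strand) was at 1.09 and 1.25 CPM in QKO, 1.66 and 0.966 CPM in QT7 and 1.51 and 0.609 CPM in QT7L1, against 4.73 and 9.14 CPM in WT. QKO lay within the range of the rescued lines, and the log2 fold change against WT was -2.57 ± 0.47, -2.41 ± 0.46 and -2.71 ± 0.48 in QKO, QT7 and QT7L1. Kcnj3 encodes GIRK1, a subunit of the potassium channels that G protein beta-gamma subunits open in atrial muscle and neurons. Kcnj3 (ENSMUSG00000026824; chromosome 2, 55435970 to 55598145, plus strand) was at 1.06 and 1.28 CPM in QKO, 1.17 and 1.01 CPM in QT7 and 0.969 and 1.74 CPM in QT7L1, against 9.23 and 4.63 CPM in WT. The edited lines overlapped, with log2 fold changes against WT of -2.56 ± 0.4, -2.66 ± 0.4 and -2.35 ± 0.39 in QKO, QT7 and QT7L1. An RNA gene on the opposite strand, Gm26794, overlaps Kcnj3 and had at most 23 counts in a library. The strand setting of the counting is not given in the sources used here, so reads of the pair may not be fully separated.

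Cd109 encodes a surface protein of the alpha-2-macroglobulin family that is held by a GPI anchor and binds TGF-beta. Cd109 (ENSMUSG00000046186; chromosome 9, 78615546 to 78716253, plus strand) was at 3.66 and 2.47 CPM in QKO, 2.76 and 3.93 CPM in QT7 and 1.79 and 3.47 CPM in QT7L1, against 11.3 and 8.75 CPM in WT. The edited lines overlapped, and the log2 fold change against WT was -1.71 ± 0.35, -1.58 ± 0.34 and -1.93 ± 0.35 in QKO, QT7 and QT7L1. Atp10a encodes a P4-type ATPase, an enzyme that moves phospholipids from the outer to the inner face of the plasma membrane. Atp10a (ENSMUSG00000025324; chromosome 7, 58656166 to 58829420, plus strand) was at 3.29 and 4.05 CPM in QKO, 3.01 and 4.69 CPM in QT7 and 10.9 and 6.09 CPM in QT7L1, against 20.3 and 19.6 CPM in WT. QT7L1 lay above both other edited lines and below WT, and QKO lay within the range of QT7. The log2 fold change against WT was -2.44 ± 0.31, -2.37 ± 0.3 and -1.23 ± 0.29 in QKO, QT7 and QT7L1.

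Per kilobase of exon, the mean WT level fell in the order Atp10a (3.57 CPM per kb), Casq2 (2.53), Trim36 (1.78), Cd109 (1.46), Kcnj3 (1.33), Fndc3c1 (1.05), Trim67 (0.415) and Jakmip2 (0.326). In QKO the same measure was highest in Atp10a (0.657 CPM per kb) and lowest in Trim67 (0.0313). The WT libraries themselves differed for some of the genes. WT replicate 1 was 2.03-fold above WT replicate 2 for Fndc3c1 and 2.0-fold for Kcnj3, while WT replicate 2 was 1.93-fold above replicate 1 for Casq2. For Trim36, Jakmip2 and Atp10a the WT libraries were close, with ratios of replicate 1 to replicate 2 of 0.985, 1.06 and 1.03.

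**Figure D2:**
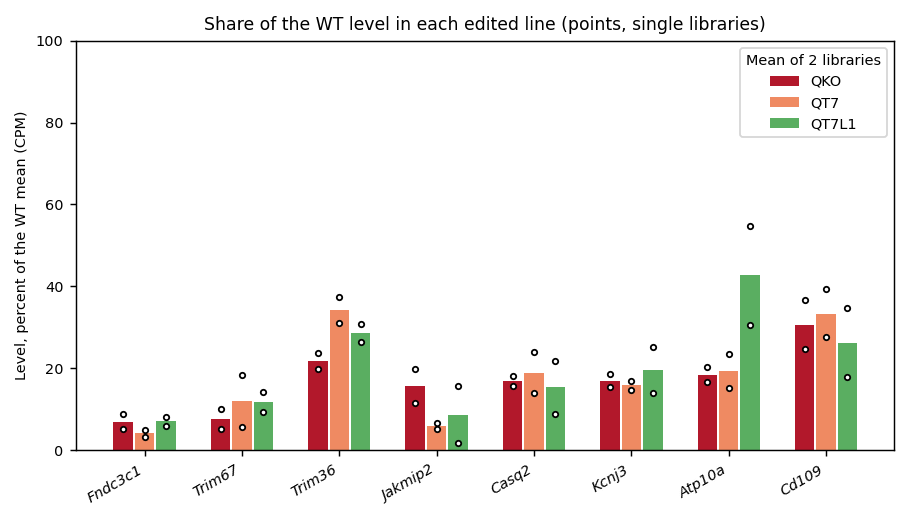
Level of each gene in QKO, QT7 and QT7L1 as a percent of the WT mean (linear axis from 0 to 100); bars are means of 2 libraries and points single libraries. No bar passes 42.7%, the value of Atp10a in QT7L1.

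The comparisons among the edited lines contrast no WT library, though the WT libraries shared the filter, the scaling and the spread of the fit. They ask whether putting back 1 factor moved these genes away from QKO. The name under which the genes were grouped implies that their level in the rescued lines was known when they were chosen, so few calls here are no independent evidence. In QT7 against QKO none of the 8 was called by edgeR's quasi-likelihood test, against 26.9% of tested genes. At an unadjusted p under 0.05 there was 1 (39.9% of all genes). DESeq2 called none of the 8, against 4572 of 25911 genes. The median log2 fold change of the 8 was 0.1, against 0.05 over all genes. Trim36 came closest, with both QT7 libraries above both QKO libraries and a log2 fold change of 0.66 ± 0.24 (edgeR adjusted p = 0.0673; 0.0549 to 0.279 over the 13 alternatives). Jakmip2 (-1.41 ± 0.69) and Fndc3c1 (-0.79 ± 0.53) lay lower in both QT7 libraries than in both QKO libraries, with edgeR adjusted p = 0.157 and 0.295. Libraries without overlap were common here, with QT7 above QKO in 33.5% and below it in 29.7% of tested genes. The other 5 had log2 fold changes of -0.1 to 0.63 and overlapping libraries.

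In QT7L1 against QKO 1 of the 8 was called, against 29.7% of tested genes, and it was Atp10a. Atp10a averaged 8.5 ± 3.4 CPM in QT7L1 and 3.67 ± 0.536 CPM in QKO (SD, n = 2 each), and rose by 1.21 ± 0.3 on the log2 scale (edgeR adjusted p = 0.0154). The call was lost without QKO replicate 1 (1.08, adjusted p = 0.097), QKO replicate 2 (1.37, 0.0659) or QT7L1 replicate 1 (0.74, 0.132), and over the 13 alternatives the edgeR or DESeq2 adjusted p ran from 8.86e-06 to 0.132. The authors' deposited table gave Atp10a a log2 fold change of -0.97 for QKO over QT7L1, with an adjusted p of 0.000784. Trim36 was also higher in both QT7L1 libraries than in both QKO libraries, at 0.4 ± 0.24 (edgeR adjusted p = 0.242), as were 36.3% of tested genes. The median of the 8 was 0.11, against 0.02 over all genes, and the 6 others had overlapping libraries and values of -0.86 (Jakmip2) to 0.62 (Trim67).

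In QT7 against QT7L1 none of the 8 was called by edgeR, where 0.00606% of tested genes were, which is the single predicted gene Gm47283, named after its values were seen. At an unadjusted p under 0.05 there was 1 of the 8, against 11.1% of all genes. DESeq2 called 1 of the 8, against 235 of 25911 genes. Both times it was Atp10a. Atp10a averaged 3.85 ± 1.19 CPM in QT7 and 8.5 ± 3.4 CPM in QT7L1 (SD, n = 2 each), with no overlap and a log2 fold change of -1.14 ± 0.3. Its adjusted p was 0.23 by edgeR and 0.0117 by DESeq2, and it ran from 0.000203 to 1.0 over the 13 alternatives, of which 3 gave a call. In the authors' deposited table the value was -0.94, with an adjusted p of 0.0169. Whether Atp10a was called thus varied with the test and the settings, while its log2 fold change ran from -1.5 to -0.66 over the 13 alternatives. Fndc3c1 lay lower in both QT7 libraries (-0.81 ± 0.53, edgeR adjusted p = 0.583) and Trim36 higher (0.26 ± 0.24, edgeR adjusted p = 0.711), without overlap, as in 20.1% (lower) and 20.7% (higher) of tested genes; the other 5 overlapped. For Fndc3c1, Trim67, Jakmip2 and Casq2 the SE among the edited lines was 0.48 to 0.74 on the log2 scale, and for the other 4 it was 0.24 to 0.41.

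**Figure D3:**
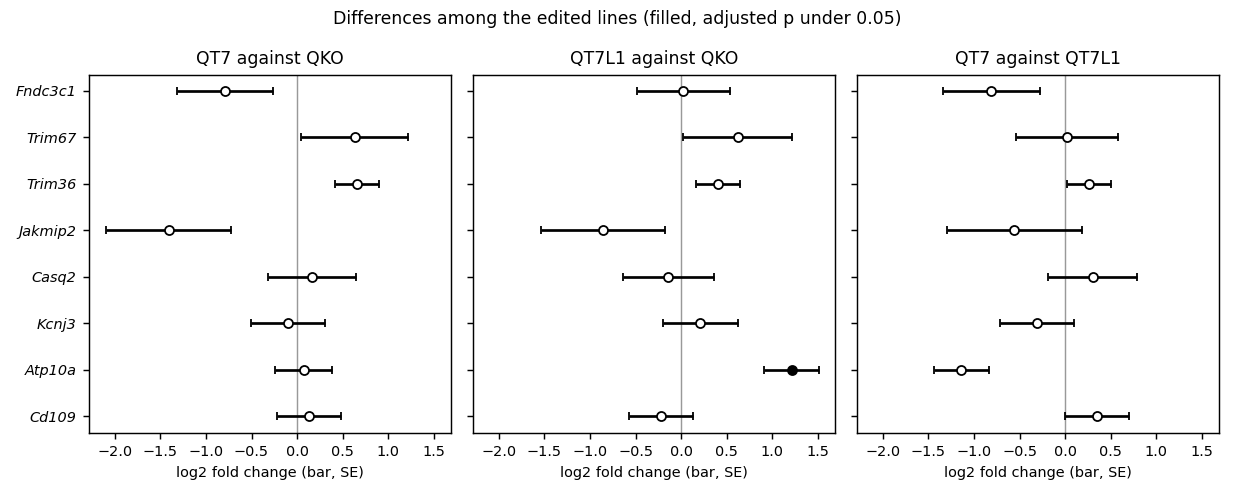
Log2 fold change (points) and standard error (bars) of the 8 genes in QT7 against QKO, QT7L1 against QKO and QT7 against QT7L1. The filled point, Atp10a in QT7L1 against QKO at 1.21, is the only one with an adjusted p under 0.05 in these comparisons.

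Relatives of the 8 genes were followed in family lists. Relatives could be named because they were called among the edited lines, while the 8 were grouped as genes that neither factor restores. Differences there between a named relative and one of the 8 are therefore a description and no test. Among class I TRIM genes, 2 relatives were tested and Mid1, a microtubule-bound ubiquitin ligase on chromosome X, was the most abundant. Mid1 was at 35.0 and 36.7 CPM in QKO, 52.3 and 40.6 CPM in QT7 and 43.8 and 46.2 CPM in QT7L1, against 134.0 and 101.0 CPM in WT. It fell in QKO (-1.72 ± 0.16, edgeR adjusted p = 0.000519), in QT7 (-1.34 ± 0.16, edgeR adjusted p = 0.00326) and in QT7L1 (-1.39 ± 0.16, edgeR adjusted p = 0.0133), where 14.7%, 2.25% and 0.448% of tested genes were lower. The last call was lost without WT replicate 1 (0.056), QT7L1 replicate 1 (0.115) or QT7L1 replicate 2 (0.183). Mid1 was not called in QT7 (0.37) or QT7L1 (0.33) against QKO. Trim46, which organises microtubules at the start of axons, was at 4.28 and 4.13 CPM in QKO, 3.7 and 3.45 CPM in QT7 and 5.06 and 3.38 CPM in QT7L1, against 7.01 and 7.48 CPM in WT. Its calls in QKO (-0.79 ± 0.24, edgeR adjusted p = 0.0366) and QT7 (-1.02 ± 0.24, edgeR adjusted p = 0.0433) did not hold up. The first was lost without any of the 4 compared libraries (0.0892 to 0.174) and the second without any of the 8 libraries (0.0525 to 0.193), and QT7L1 did not pass (-0.78). Both tested relatives, like Trim67 and Trim36, which were chosen for it, had every edited library below both WT libraries, a pattern of 8.14% of tested genes, while Mid2 and Trim9 had at most 0.501 CPM in a library and were not tested.

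**Figure D4:**
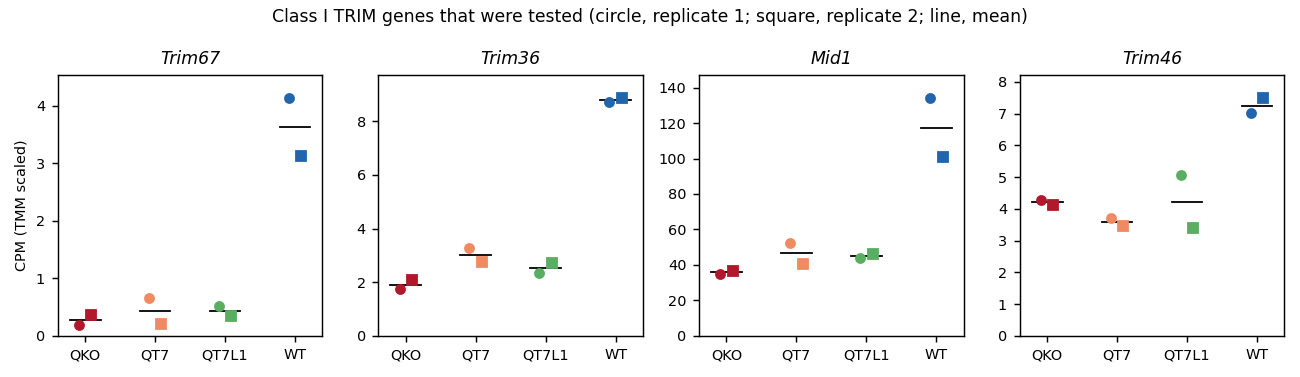
Level (CPM, linear axis from 0) of the 4 class I TRIM genes that were tested in the 2 libraries of QKO, QT7, QT7L1 and WT; circles are replicate 1, squares replicate 2 and lines the mean. The edited libraries lie below both WT libraries in all 4 panels, with Mid1 between 35.0 and 52.3 CPM in edited lines.

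The other families held genes that returned towards WT in the rescued lines and genes that stayed lower. All 6 edited libraries lay below both WT libraries in 1 of 6 tested FNDC relatives (Fndc4), 1 of 21 calcium store genes (Jph1), 2 of 5 inward rectifiers (Kcnj10 and Kcnj2), 2 of 13 P4-ATPases and partners (Atp8a2 and Tmem30b), 3 of 17 TGF-beta genes (Ltbp1, Skil and Tgfbr2) and none of the 4 relatives of Cd109, 23 GPI anchor genes or 1 relative of Jakmip2, against 8.14% of tested genes. Of 6 tested relatives in the FNDC family, 3 fell in QKO against WT and none rose. In QT7 against QKO 1 rose and in QT7L1 against QKO 2 rose, and none fell. Over all tested genes, 11.7% rose and 14.7% fell in QKO against WT, 14.8% rose and 12.1% fell in QT7 against QKO, and 15.9% rose and 13.9% fell in QT7L1 against QKO. Fndc5, the precursor of irisin, fell in QKO by 2.14 on the log2 scale against WT (SE 0.4, edgeR adjusted p = 0.00474). It rose by 2.36 ± 0.4 in QT7L1 against QKO (edgeR adjusted p = 0.00262), where Fndc3c1 was at 0.02 ± 0.51. Fndc4 was at 5.15 and 5.65 CPM in QKO, 6.05 and 6.05 CPM in QT7 and 7.39 and 8.28 CPM in QT7L1, against 11.8 and 9.88 CPM in WT, and fell in QKO (-1.0 ± 0.19, edgeR adjusted p = 0.00564). Of 21 tested calcium store and release genes, 5 rose, 7 fell and 9 did not pass in QKO against WT. In QT7 against QKO 7 rose and 2 fell, and in QT7L1 against QKO 7 rose and 5 fell. Hrc, a calcium-binding protein of the sarcoplasmic reticulum like Casq2, was at 0.31 and 0.277 CPM in QKO, 1.28 and 1.86 CPM in QT7 and 2.15 and 1.95 CPM in QT7L1, against 0.751 and 1.29 CPM in WT. It rose against QKO by 2.41 ± 0.42 in QT7 and 2.79 ± 0.42 in QT7L1 (edgeR adjusted p = 0.0033 and 0.00165), and Stim1, the calcium sensor of the endoplasmic reticulum, by 1.05 ± 0.15 and 0.81 ± 0.15 (edgeR adjusted p = 0.00167 and 0.00407). Jph1, which joins the plasma membrane to the calcium store, was at 1.55 and 1.55 CPM in QKO, 3.45 and 2.69 CPM in QT7 and 3.33 and 3.53 CPM in QT7L1, against 6.23 and 6.03 CPM in WT, and fell in QKO (-1.98 ± 0.25, edgeR adjusted p = 0.00108). Against QKO it rose by 0.98 ± 0.25 in QT7 and 1.14 ± 0.25 in QT7L1 (edgeR adjusted p = 0.016 and 0.00789). Both of these calls were lost without QKO replicate 2. The Jph1 call in QT7 was also lost without QKO replicate 1 or QT7 replicate 1, and that in QT7L1 without QT7L1 replicate 2. The skeletal muscle relative Casq1 was not called in any of these comparisons and was at 2.42 to 4.3 CPM in edited libraries and 3.66 and 4.76 CPM in WT. Of the proteins that bind calsequestrin in heart, the release channel gene Ryr2 was at 4.57 to 8.4 CPM in edited libraries and 6.64 and 6.6 CPM in WT. Asph, whose products include junctin, was at 36.9 to 61.9 CPM in edited libraries and 57.8 and 63.7 CPM in WT. It fell in QKO against WT (-0.67 ± 0.14, edgeR adjusted p = 0.00852). Against QKO it rose by 0.44 ± 0.14 in QT7 and 0.63 ± 0.14 in QT7L1 (edgeR adjusted p = 0.0433 and 0.00969). Whether these Asph calls hold over the alternatives was not examined. Trdn, the gene of triadin, had at most 0.0277 CPM in a library.

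Of 5 tested relatives among inward rectifier channels, 2 fell in QKO against WT, 2 rose in QT7 against QKO and 2 rose in QT7L1 against QKO. The glial channel Kcnj10 fell in QKO by 1.23 (SE 0.23, edgeR adjusted p = 0.00481). Against QKO it rose by 0.71 ± 0.23 in QT7 and 0.95 ± 0.23 in QT7L1 (edgeR adjusted p = 0.0415 and 0.0121). All of these Kcnj10 calls were lost without QKO replicate 2. The call in QT7 was lost on leaving out any library other than QT7 replicate 1, and that in QT7L1 also without QT7L1 replicate 2. The subunits with which GIRK1 forms channels in heart and brain, Kcnj5 and Kcnj6, had at most 0.0626 and 0.0227 CPM in any library and were not tested. Of 13 tested P4-ATPases and partner subunits other than Atp10a, 3 rose and 5 fell in QKO against WT, and in QT7L1 against QKO 5 rose and 2 fell. Atp9a, a P4-ATPase of endosomes, rose against QKO in QT7 (1.32 ± 0.15, edgeR adjusted p = 0.00097) and QT7L1 (0.85 ± 0.15, edgeR adjusted p = 0.0035). Atp10a was at 0.07 ± 0.31 in QT7 and 1.21 ± 0.3 in QT7L1 against QKO. Tmem30a, the subunit that most P4-ATPases need, was at 33.5 to 44.4 CPM in edited libraries and 37.2 and 34.1 CPM in WT and was not called in any comparison.

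Of 4 tested relatives of Cd109, 2 fell in QKO against WT, 3 rose in QT7 against QKO and 2 rose in QT7L1 against QKO. A2m, the secreted protease inhibitor that names the family, was at 5.65 and 5.88 CPM in QKO, 59.9 and 65.0 CPM in QT7 and 36.1 and 61.1 CPM in QT7L1, against 23.1 and 32.0 CPM in WT. Against QKO it rose by 3.44 ± 0.27 in QT7 and 3.08 ± 0.26 in QT7L1 (edgeR adjusted p = 0.000769 and 0.000653), and the complement protein C3 by 3.67 ± 0.55 and 3.35 ± 0.56 (edgeR adjusted p = 0.00197 and 0.00254). In the same comparisons Cd109 was at 0.13 ± 0.35 and -0.22 ± 0.35. Among 17 TGF-beta ligands, receptors and partners, 2 rose and 3 fell in QKO against WT, 6 rose and 2 fell in QT7 against QKO, and 5 rose and 1 fell in QT7L1 against QKO. The type I receptor Acvrl1 rose against QKO by 1.7 ± 0.26 in QT7 and 1.8 ± 0.26 in QT7L1 (edgeR adjusted p = 0.00201 and 0.00136). Skil, an inhibitor of SMAD proteins, was at 81.6 and 76.1 CPM in QKO, 91.1 and 127.0 CPM in QT7 and 109.0 and 127.0 CPM in QT7L1, against 195.0 and 211.0 CPM in WT, and fell in QKO (-1.36 ± 0.15, edgeR adjusted p = 0.000775). Against QKO it rose by 0.47 ± 0.15 in QT7 and 0.59 ± 0.15 in QT7L1 (edgeR adjusted p = 0.0423 and 0.0166). The Skil call in QT7 was lost on leaving out any library other than QT7 replicate 1. The Skil call in QT7L1 was lost without either QKO library or without QT7L1 replicate 2. Of 23 tested GPI anchor genes 3 rose and none fell in QKO against WT, 2 rose and 2 fell in QT7 against QKO, and 1 rose and 3 fell in QT7L1 against QKO. Jakmip1, the 1 tested relative of Jakmip2, was not called in any comparison and was at 9.7 to 19.4 CPM in edited libraries and 7.58 and 9.66 CPM in WT. Of the 4 TCF/LEF genes, 3 (Tcf7, Tcf7l1 and Lef1) fell in each edited line against WT, and Tcf7l2 was not called there. Against QKO a different gene fell in each rescued line. It was Tcf7l1 in QT7 (-0.64 ± 0.15, edgeR adjusted p = 0.0137) and Lef1 in QT7L1 (-1.98 ± 0.58, edgeR adjusted p = 0.0286). No family relative was called in QT7 against QT7L1 by edgeR.

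The 8 genes lie on 7 chromosomes, with Jakmip2 and Trim36 2.48 Mb apart on chromosome 18. The nearest tested protein-coding genes, 2 on each side, gave 32 neighbours, and in 1 of them all 6 edited libraries lay below both WT libraries, against 8.14% of tested genes. That neighbour was Ccdc112, beside Trim36, at -0.66 ± 0.18 in QKO, -0.37 ± 0.18 in QT7 and -0.16 ± 0.18 in QT7L1 on the log2 scale. The median log2 fold change of the 32 neighbours against WT was -0.12 in QKO, -0.06 in QT7 and -0.14 in QT7L1. Each of the 8 genes was lower against WT than each of its 4 neighbours in every line, except that Cd109 in QT7L1 was at -1.93 and its neighbour Col12a1, a collagen gene, at -2.07 ± 0.91.

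**Figure D5:**
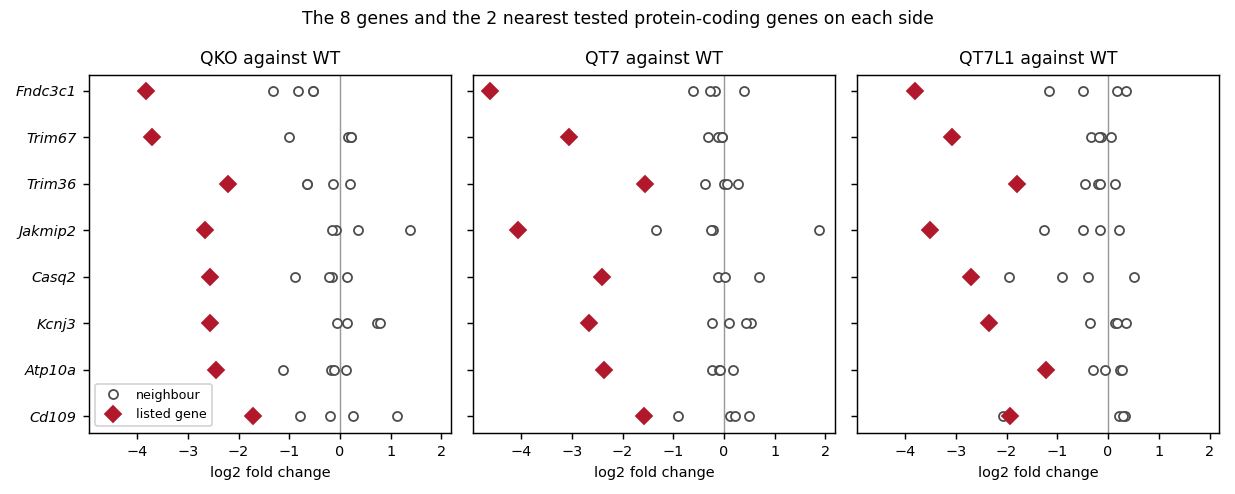
Log2 fold change against WT in QKO, QT7 and QT7L1 of the 8 genes (filled diamonds) and of the 2 nearest tested protein-coding genes on each side (open circles), 1 row per gene. The diamonds lie to the left of their neighbours in all rows but Cd109 in QT7L1.

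The likeness of other genes to the 8 was measured as Pearson's r with their mean z-score of log2 CPM over the 8 libraries, among 10321 named genes of log2 CPM 2 or more. The 8 closest were Spcs3, Sema3e, Atp6v1e1, Socs6, Pcyox1l, Mid1, Mpdz and Frmd8, with r from 0.983 to 0.962. Such values arise from 2 clusters of libraries, edited and WT, and are a description only. They do not measure the size of a change. Of these 8, Atp6v1e1 changed least against WT, with log2 fold changes of -0.3 in QKO, -0.29 in QT7 and -0.28 in QT7L1, and Sema3e most. Over the 4 group means 2 of these 8 remained among the 8 closest. Sema3e, a secreted axon guidance ligand, was at 2.61 and 2.3 CPM in QKO, 2.78 and 2.6 CPM in QT7 and 3.45 and 2.65 CPM in QT7L1, against 17.7 and 10.3 CPM in WT, with log2 fold changes of -2.51 ± 0.29, -2.37 ± 0.29 and -2.19 ± 0.29. Spcs3, a subunit of the signal peptidase, was at 45.5 to 51.7 CPM in the edited libraries and 106.0 and 98.0 CPM in WT, with log2 fold changes of -1.0 ± 0.1 in QKO and -1.1 ± 0.1 in QT7 and QT7L1. Among the 8 genes themselves, r with the mean of the other 7 ranged from 0.833 (Cd109) and 0.845 (Atp10a) to 0.975 (Fndc3c1).

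Markers of heart and nerve cells, in which some of the 8 are best known, were followed as well. All 10 cardiomyocyte markers summed to 27.3 and 32.2 CPM in QKO, 38.5 and 32.1 CPM in QT7 and 18.5 and 17.8 CPM in QT7L1, against 28.0 and 29.2 CPM in WT, with Nppa at 0 in every library. The 9 neuron markers summed to 430.0 and 348.0 CPM in QKO, 597.0 and 286.0 CPM in QT7 and 170.0 and 174.0 CPM in QT7L1, against 305.0 and 332.0 CPM in WT. The neuron sum was above both WT libraries in both QKO libraries and the cardiomyocyte sum in 1 of them, and in QT7L1 both sums were below WT in both libraries. These sums are carried by few genes, Ttn in the cardiomyocyte list and Stmn2 and Tubb3 in the neuron list, and single markers went another way. In 1 of 8 tested cardiomyocyte markers, Myh6, and 1 of 7 tested neuron markers, Map2, all 6 edited libraries lay below both WT libraries, against 8.14% of tested genes. Myh6, a heart myosin, was at 2.73 and 2.25 CPM in QKO, 1.84 and 3.38 CPM in QT7 and 2.54 and 2.04 CPM in QT7L1, against 4.66 and 6.85 CPM in WT. Map2, a microtubule protein of neurons, was at 4.9 and 7.12 CPM in QKO, 6.1 and 7.77 CPM in QT7 and 9.84 and 7.07 CPM in QT7L1, against 12.8 and 11.4 CPM in WT. The part of such cells in the values of the 8 genes was not tested. The 8 endoderm markers summed to 31.5 to 54.0 CPM in the edited libraries and 32.5 and 77.4 CPM in WT.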

How the data were processed

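RNA of 8 libraries was sequenced, 2 for each of QKO, QT7, QT7L1 and WT, from stranded mRNA libraries made from 250 ng of total RNA, per the labels' protocols. Per the submitters' processing notes the tools were bcl2fastq 1.8.4, STAR 2.4.0f1, HTSeq and DESeq2 (version given as 2.1.8.3) with mm10 (GRCm38); no version or setting of HTSeq is stated there. The deposited library files hold raw integer counts per Ensembl gene. The authors' comparison tables hold log2 fold changes, first group over second, and adjusted p-values, quoted only where named.

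Symbols and coordinates came from GENCODE M21 on GRCm38 (47310 of 47729 identifiers found). Counts were analysed with edgeR 4.0.16 in R 4.3.3: filterByExpr, TMM scaling, 1 robust quasi-likelihood fit with a mean per group over the 8 libraries, 2-sided tests adjusted by Benjamini-Hochberg over 16515 genes and called under 0.05. The SE is the absolute log2 fold change over the square root of F. Replicates are clones or cultures as labelled, and with n = 2 the spread was shared by the 4 groups. Log2 CPM used a prior count of 2.

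The 8 genes, the 10 family lists, the 5 marker lists and the tests were chosen with earlier results of these data known. Beside the 8, the rule for names allows the 4 most abundant tested members of a list, any called among the edited lines, the 8 genes most alike in pattern and the neighbours; Casq1, Ryr2, Tmem30a, Kcnj2, Atp8a2, Ltbp1, Tgfbr2, Myh6, Map2, Trdn, Kcnj5, Kcnj6, Mid2, Trim9 and Gm47283 were picked after their values were seen. Alternatives were median-ratio scaling, DESeq2 1.42.0, no filter, the compared groups alone, a replicate block and leaving out each library.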

Additional observations from a re-analysis of the deposited data

How the results depend on the processing

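Against WT, the 312 alternative fold changes of the 8 genes kept their sign, from -4.28 to -1.46 in QKO, -5.04 to -1.34 in QT7 and -5.76 to -0.86 in QT7L1. Their calls against WT, which are no test because these values chose the genes, numbered 8 of 8 in QKO, 8 in QT7 and 7 in QT7L1, but 6 to 8, 2 to 8 and 0 to 8 with 1 library left out. Without WT replicate 1 there were 2 in QT7 and 0 in QT7L1, without either QT7L1 library 0 in QT7L1, without WT replicate 2 or either QKO library 3 in QT7L1, and with the compared groups alone 5 in QT7. In the main fit 14.7%, 2.25% and 0.448% of all tested genes were called lower than WT in QKO, QT7 and QT7L1. Calls over all genes moved as well, as given below. Among the edited lines, 280 of 311 kept their sign and side of the threshold. A further 23, none of them called, changed sign. Atp10a lost its call in QT7L1 against QKO in 3 and gained one in QT7 against QT7L1 in 3 (DESeq2, no filter, without QT7 replicate 2). Jakmip2 gained a call in QT7 against QKO without the filter (-1.39, edgeR adjusted p = 0.0214) and in QT7L1 against QKO without QT7L1 replicate 1 (-3.1, edgeR adjusted p = 0.0294), and was below the filter with QT7 and QT7L1 alone. For 17 other named genes, 537 of 637 alternative values of called fold changes kept sign and call, 100 lost the call and none changed sign.

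Numbers of genes called moved more. QT7 against QT7L1 had 1, but 235 by DESeq2, 1030 without the filter, 20 with the compared groups alone and 2 with a replicate block, and 0 to 1564 with 1 library left out. QT7 against WT had 763, but 1287 by DESeq2, 2203 without the filter and 117 with the compared groups alone (52 to 2023). QT7L1 against WT had 123, but 575, 1248 and 614 under the same alternatives (0 to 517). With 1 library left out, QT7 against QKO had 1432 to 4355, QT7L1 against QKO 1704 to 5971 and QKO against WT 1272 to 5497; the lone library of a group is then assumed to vary like the others. The cause was not tested. Replicate numbers did not pair the libraries (correlations of deviations from -0.205 to 0.164), and the replicate block changed no call of the 8 genes.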
